A study of Mus musculus with 6 samples.

Results

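The smooth muscle and myofibroblast contractile genes described here are *Acta2*, *Actg2*, *Tagln*, *Cnn1*, *Myl9*, *Tpm1*, *Tpm2*, *Cald1*, *Myh11* and *Lmod1*. Each was taken from the count table as the locus that carries its gene name. All 10 genes had a locus with no other name, of 51499 loci in all, and 7 of them were among the 14499 loci with enough counts to be tested. The RNA came from WT mouse embryonic fibroblasts (MEFs) collected 72 h after transfection with scrambled siRNA (Scr) or with Yme1l siRNA, with 3 libraries per group. The methods speak of independent cell cultures for the study in general, the labels do not say what a replicate is, and p-values measure the spread between these libraries. *Yme1l* encodes YME1L, a protease of the mitochondrial inner membrane. No other treatment or genotype separates the groups. The MEFs are described in the methods as expanded clones, derived from *Yme1l* loxP/loxP mice and immortalized by the SV40 large T antigen. The labels instead call them 3T3 immortalized. The methods refer to a supplementary list of the siRNAs, which was not used here.

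Contraction rests on the sliding of myosin filaments along actin filaments. In smooth muscle the actins are α-actin and γ-actin of the smooth muscle type (*Acta2* and *Actg2*), tropomyosins (*Tpm1* and *Tpm2*) lie along the filament, and the motor is the myosin heavy chain *Myh11* with its regulatory light chain *Myl9*. Caldesmon (*Cald1*), calponin (*Cnn1*) and transgelin (*Tagln*) bind actin and modulate contraction or filament bundling, and leiomodin (*Lmod1*) starts new actin filaments. Fibroblasts that turn into myofibroblasts during wound repair take up *Acta2* into stress fibres, and many of these genes are controlled by serum response factor (SRF) with its cofactors of the myocardin family. Every cell also has cytoplasmic counterparts of these proteins.

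The libraries held between 37260605 and 45205207 counts. Levels are given as CPM, the usual depth-scaled count after TMM scaling, on which 1 count equals 0.0225 to 0.0277 CPM. *Yme1l1*, the gene targeted, stood at 170, 171 and 171 CPM in the Scr libraries and at 31.6, 23.4 and 45 CPM in the Yme1l siRNA libraries (log2 fold change -2.36, SE 0.20, edgeR adjusted p = 3.87e-05). The SE is the standard error, and the test throughout is the quasi-likelihood test of edgeR. Of all loci tested, 58.0% passed an adjusted p of 0.05, 28.4% as higher and 29.6% as lower, and the groups did not overlap at 65.4%. In bulk RNA, fewer cells of a type and less RNA per cell cannot be told apart.

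The cultures were checked against markers of fibroblasts, of smooth, skeletal and cardiac muscle, and of pericytes, epithelial, endothelial and immune cells and adipocytes. Of 8 fibroblast markers, none was at 0 in all libraries. *Thy1* and *Lum*, with at most 1 and 15 counts, were too low to be tested. After *Yme1l* knockdown 5 fell, where 29.6% of all loci tested did, and *Vim* (3550 and 3100 CPM) was not called. The summed level of the 8 was 24500 to 31600 CPM in Scr libraries and 14200 to 17100 CPM in Yme1l siRNA libraries. Most of it came from the collagens *Col1a1*, *Col1a2* and *Col3a1*, with Scr means of 12700, 6160 and 4850 CPM. Of 5 smooth muscle markers, the myosin *Myh11* and the coactivator *Myocd* had at most 3 counts in any library, whereas *Cnn1* had 173 to 246 counts and the intermediate filament gene *Des* 100 to 152 counts. *Smtn*, which encodes the actin-binding protein smoothelin, stood at 158 to 185 CPM and made up most of the summed level of the 5, which was 167 to 188 CPM in Scr libraries and 175 to 193 CPM in Yme1l siRNA libraries. Of 5 skeletal muscle markers 4 were at 0 in all libraries, and so were 3 of 4 cardiac markers. Among markers of other types, *Krt8* (epithelial), *Kdr* and *Tek* (endothelial), *Csf1r* (immune) and *Fabp4* (adipocyte) were called higher and *Notch3* (pericyte) lower. *Krt8*, with 1 count in each Scr library, and *Kdr* passed the filter on low counts only through the Yme1l siRNA libraries. The pericyte sum went from 156 to 171 CPM in Scr libraries to 88.4 to 126 CPM after *Yme1l* knockdown. Within it *Notch3* fell from a mean of 64.9 to 19.1 CPM, whereas *Cspg4* (98.4 and 91.5 CPM) was not called. *Kcnj8* and *Abcc9* had 0 counts. The immune sum went from 162 to 179 CPM to 241 to 255 CPM. Within it *Csf1r* rose from a mean of 123 to 205 CPM, whereas *Cd68* (46.8 and 42.8 CPM) was not called. The epithelial, endothelial and adipocyte sums reached at most 7.81 CPM. *Ptprc* and *Adgre1*, which define leukocytes and macrophages, had at most 3 counts. The part of these markers in the results below was not tested.

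Of the 7 contractile genes tested, *Acta2*, *Tpm1* and *Cald1* fell after *Yme1l* knockdown, none rose, and *Tagln*, *Cnn1*, *Tpm2* and *Lmod1* did not pass the threshold. At an unadjusted p under 0.05, *Tagln* was higher as well, and DESeq2 and limma-voom also called 0 higher and 3 lower. Among all loci 29.6% were called lower and 28.4% higher. *Acta2* was the one gene past 2-fold, in the lower direction like 7.28% of all loci, and none of the 7 was past 2-fold in the higher direction, against 8.18%. At 6 of the 7 genes the groups lay apart, against 65.4% of all loci. In 4 of them the Yme1l siRNA libraries were lower (33.6% of all loci) and in *Cnn1* and *Tagln* higher (31.9% of all loci). The median log2 fold change of the 7 was -0.32, whereas that of all loci tested was 0.01. *Actg2*, *Myl9* and *Myh11* had too few counts to be tested. *Lmod1* passed the filter on low counts only through the Scr libraries, where it was higher.

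**Figure D1:**
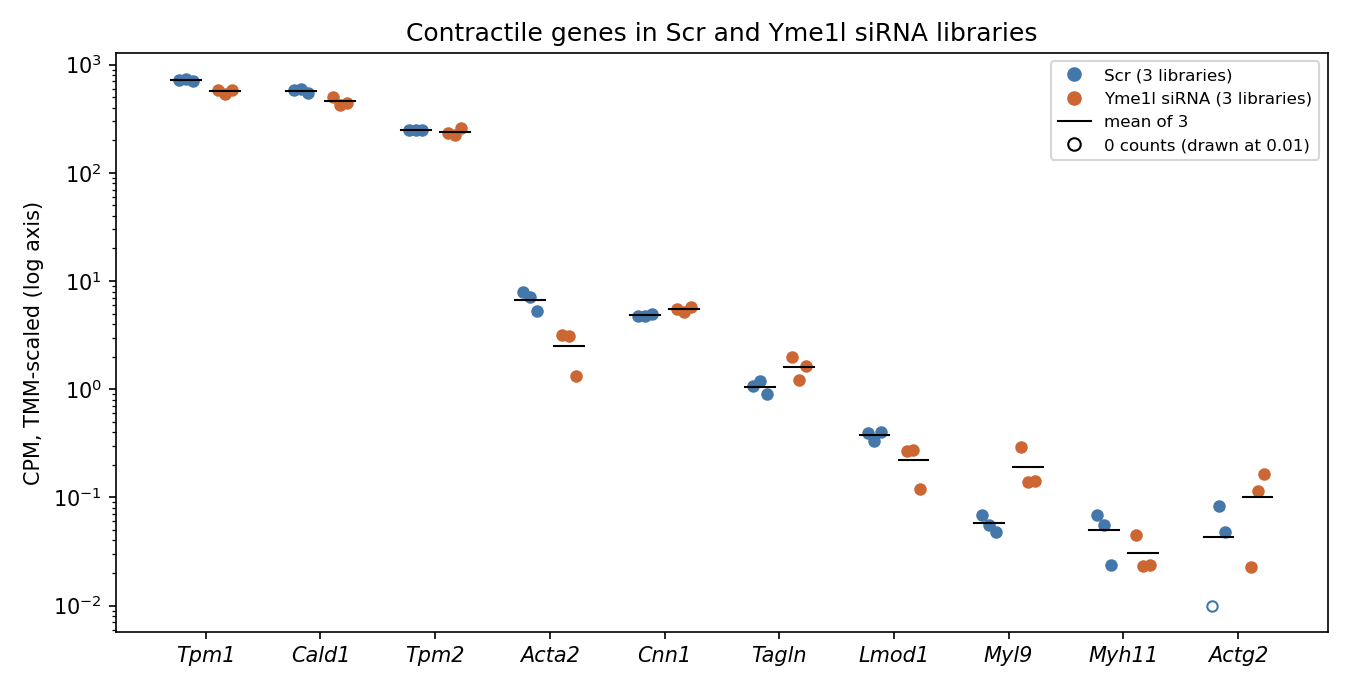
Level of each contractile gene in CPM after TMM scaling, on a log axis, with 1 point per library (3 Scr, 3 Yme1l siRNA) and a line at the mean of 3. The open point stands for the *Actg2* count of 0 in Scr replicate 1. *Tpm1*, *Cald1* and *Tpm2* lie above 200 CPM in every library, whereas *Lmod1*, *Myl9*, *Myh11* and *Actg2* lie below 0.5 CPM.

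The RefSeq promoter windows of GRCm38.p6, 250 bases before to 50 after a transcript start, were searched for the CArG box, the site of SRF, and for CATTCC, the core of the MCAT element bound by TEAD factors, on both strands. The table holds 8 windows for 7 of the 10 genes (2 for *Cald1*), and *Actg2*, *Tagln* and *Myh11* have no entry. No match of one motif overlapped a match of the other in these windows. The CArG box was searched in its strict form alone, CC and GG around a core of only A and T. Sites with another base in the core were not counted, so a window without a match may still hold an SRF site. This strict form was found in 1 of the 8 windows, that of *Myl9*, and in 1.63% of 32851 windows in all. The CATTCC core was found in 4 of the 8 windows and in 14.7% of all windows. Those 4 belong to *Acta2*, *Tpm1* and *Cald1*, the 3 genes called lower, and to *Lmod1*. The last was not called (log2 fold change -0.75, edgeR adjusted p = 0.122) and passed the filter on low counts only through the Scr libraries. The windows of *Tpm2*, *Cnn1* and *Myl9* and the second window of *Cald1* held none. The matches are shown on the strand of the gene with 10 bases on each side. Capitals mark the motif, which is the reverse complement GGAATG in all 4 cases.
*Acta2*, chr19:34255504-34255529, motif 146 bases before the start: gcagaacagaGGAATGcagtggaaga
*Tpm1*, chr9:67049254-67049279, 56 bases before: gctgtcctaaGGAATGcggtcgcccc
*Cald1*, chr6:34598341-34598366, 153 bases before: gcatgcctagGGAATGacaggcatct
*Lmod1*, chr1:135324673-135324698, 130 bases before: aagattccctGGAATGtcctcaagtt
*Myl9* (CArG box), chr2:156775293-156775322, 161 bases before: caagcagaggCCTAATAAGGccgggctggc
The stretches of *Acta2* and *Tpm1* also overlap exons of other annotated transcripts of these genes. A match describes the letters only, binding was not measured in these libraries, and the overlap with the genes called lower was seen after the fact and carries no test.

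*Acta2* (XLOC_022091, chromosome 19, 34241090 to 34255590 of GRCm38, minus strand) encodes the α-actin by which myofibroblasts are usually recognized. Its level was 7.95, 7.07 and 5.24 CPM in the Scr libraries and 3.16, 3.11 and 1.33 CPM in the Yme1l siRNA libraries. All 3 Yme1l siRNA libraries lay below all 3 Scr libraries, and the third replicate was the lowest in either group. The means were 6.75 ± 1.38 and 2.53 ± 1.04 CPM (SD, n = 3 each). The log2 fold change was -1.41, with a 95% interval from -2.12 to -0.70, or a fall to 0.376 of the Scr level (SE 0.31, edgeR adjusted p = 0.00463). The Yme1l siRNA library with the least *Acta2* was the one with the most *Yme1l1*, 45 CPM. Without it the log2 fold change was -1.11, with an adjusted p of 0.00169 from edgeR. *Actg2* (XLOC_036968, chromosome 6, 83512905 to 83536265, minus strand), the γ-actin of visceral smooth muscle, had 0, 3 and 2 counts in Scr libraries and 1, 5 and 7 counts in Yme1l siRNA libraries. The groups overlapped, and the ratio of the summed counts was 2.43 with a 95% counting interval from 0.814 to 8.71, so that no difference was detectable at this depth.

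Among the tropomyosins, *Tpm1* (XLOC_046627, chromosome 9, 67022590 to 67049406, minus strand) was the most abundant of the 10 genes. Its level was 729, 732 and 712 CPM in the Scr libraries and 588, 535 and 577 CPM in the Yme1l siRNA libraries. The groups lay clearly apart and the libraries of a group close together. *Tpm1* fell by 21.8%, with a log2 fold change of -0.35 (SE 0.07, edgeR adjusted p = 0.00278). *Tpm2* (XLOC_030422, chromosome 4, 43514711 to 43523765, minus strand) stood at 250, 251 and 251 CPM in the Scr libraries and at 236, 223 and 257 CPM in the Yme1l siRNA libraries. Here the groups overlapped, and the 95% interval of the log2 fold change of -0.07 ran from -0.24 to 0.10 (edgeR adjusted p = 0.442). The annotation lists 21 transcripts of *Tpm1* and 6 of *Tpm2*, among them muscle and cytoplasmic isoforms, which the counts per locus do not separate.

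The myosin genes of the set were close to the limit of detection. *Myh11* (XLOC_018214, chromosome 16, 14194535 to 14291372, minus strand) had 3, 2 and 1 counts in Scr libraries and 2, 1 and 1 counts in Yme1l siRNA libraries. Both groups stayed at or under 3 counts, and no fold change is given. *Myl9* (XLOC_023873, chromosome 2, 156775420 to 156781658, plus strand) had 3, 2 and 2 counts in Scr libraries against 13, 6 and 6 counts in Yme1l siRNA libraries. All 3 Yme1l siRNA libraries were higher, by a ratio of summed counts of 3.34 with a 95% counting interval from 1.40 to 9.15. This interval leaves out the spread between cultures, and with every locus of at least 1 count tested the adjusted p from edgeR was 0.0672.

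Of the genes that regulate the filaments, *Cald1* (XLOC_034897, chromosome 6, 34598500 to 34775473, plus strand) fell. Caldesmon restrains the myosin ATPase on actin. Its level was 580, 594 and 549 CPM in the Scr libraries and 504, 428 and 444 CPM in the Yme1l siRNA libraries. The groups did not overlap, and the log2 fold change was -0.32, a fall by 20.2% (SE 0.08, edgeR adjusted p = 0.00945). The annotation lists 18 transcripts, so smooth muscle and cytoplasmic caldesmon were counted together.

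*Cnn1* (XLOC_044723, chromosome 9, 22099216 to 22109630, plus strand), a calponin that is usually restricted to smooth muscle, stood at 4.80, 4.79 and 4.91 CPM in the Scr libraries and at 5.55, 5.22 and 5.70 CPM in the Yme1l siRNA libraries. Every Yme1l siRNA library was above every Scr library, but the step was small. The log2 fold change was 0.18, with a 95% interval from -0.10 to 0.46 (edgeR adjusted p = 0.230). *Tagln* (XLOC_046410, chromosome 9, 45929619 to 45936058, minus strand), an actin-bundling protein known as SM22α, had levels of 1.06, 1.19 and 0.901 CPM in the Scr libraries and 1.98, 1.22 and 1.64 CPM in the Yme1l siRNA libraries. The groups did not overlap, although the second Yme1l siRNA replicate came close to the Scr range. Its log2 fold change was 0.62 (SE 0.25, edgeR adjusted p = 0.0591) and passed the threshold without that replicate (0.79, adjusted p = 0.0260). Exons of *Tagln* overlap those of *Pcsk7* on the other strand, and whether the counting used strand is not stated. The part of this overlap in the *Tagln* values was not tested.

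*Lmod1* (XLOC_001107, chromosome 1, 135324807 to 135368065, plus strand) had 17, 12 and 17 counts in Scr libraries and 12, 12 and 5 counts in Yme1l siRNA libraries. In CPM these were 0.393, 0.333 and 0.403 against 0.271, 0.276 and 0.119. The groups did not overlap, yet the 95% interval of the log2 fold change of -0.75 ran from -1.63 to 0.12 (edgeR adjusted p = 0.122), and the value was -0.46 without Yme1l siRNA replicate 3.

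Levels were compared between genes as CPM per kb of merged exons. In Scr libraries the order was *Tpm1* (112), *Tpm2* (86.2), *Cald1* (47.7), *Acta2* (3.07), *Cnn1* (1.77), *Tagln* (0.529), *Lmod1* (0.0952), *Myl9* (0.0494), *Actg2* (0.0279) and *Myh11* (0.00651), as means of 3 libraries in CPM per kb. Neighbours in this order had ranges that did not overlap, except for *Myl9* with *Actg2* and *Actg2* with *Myh11*. Merged exons join all annotated transcripts, 6485 bases for *Tpm1*, 2909 for *Tpm2* and 12041 for *Cald1*. The longest coding transcripts of these genes have 2890, 2175 and 4777 bases. The distances and the order among them, in either group, therefore depend on the length used, and other lengths were not tried. In Yme1l siRNA libraries *Cnn1* (2.01 CPM per kb) stood above *Acta2* (1.15), *Myl9* (0.165) and *Actg2* (0.0650) above *Lmod1* (0.0562), and the ranges of *Tpm1* (87.4) and *Tpm2* (82.2) overlapped, as did those of *Acta2* and *Tagln* (0.812), and of *Actg2* and *Lmod1*. Over all libraries, *Tpm1*, *Tpm2* and *Cald1* exceeded 98.2%, 97.8% and 94.8% of 22396 loci with counts, whereas *Acta2* exceeded 57.5% and *Tagln* 49.7%. *Tpm1*, *Tpm2* and *Cald1* held 99.1 to 99.3% of the counts on the 10 genes in every library. The summed level of the 10 was 1560 ± 34.9 CPM in Scr and 1270 ± 72.6 CPM in Yme1l siRNA libraries (SD, n = 3 each), without overlap (two-sided exact permutation test, p = 0.1, the smallest that 3 against 3 allows).

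The list of cytoplasmic counterparts holds 16 genes for actins, tropomyosins, myosin chains, calponins, transgelin and tropomodulins outside the set. The name is a label for the list, and not every gene in it, *Tmod1* and *Myl6* among them, is confined to non-muscle cells. *Tmod2* and *Myh14* had at most 24 and 25 counts per library. Of these 16, 11 fell and none rose, where 29.6% and 28.4% of all loci did. The number lower ran from 8 to 13 with each library left out and was 8 at an adjusted p under 0.01. At an unadjusted p under 0.05, and with DESeq2 or limma-voom, the number higher was also 0. All 16 had a negative log2 fold change under edgeR, with a median of -0.33 and a range from -2.34 to -0.11. The lowest value is that of *Tmod2*, with 21, 18 and 24 counts in Scr and 8, 1 and 4 counts in Yme1l siRNA libraries, which passed the filter on low counts only through the Scr libraries. *Tmod1*, a cap of slow-growing filament ends, fell from 33.7 ± 1.28 to 10.8 ± 2.68 CPM (SD, n = 3 each), and the light chains *Myl12b* and *Myl12a* from 138 ± 9.57 to 79.7 ± 5.21 CPM and from 770 ± 16.3 to 536 ± 50.7 CPM. Their log2 fold changes were -1.64, -0.79 and -0.52 (edgeR adjusted p = 6.06e-05, 8.82e-05 and 0.000954). *Myl12a* and *Myl12b* transcripts are 96.9% identical over 648 bases, so the share of each is uncertain.

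Cytoplasmic γ-actin, *Actg1*, stood at 2770, 2380 and 2530 CPM in the Scr libraries and at 820, 855 and 1530 CPM in the Yme1l siRNA libraries. The third Yme1l siRNA replicate lay between the other two and the Scr range. The log2 fold change was -1.26 (SE 0.22, edgeR adjusted p = 0.00152) and -1.61 without that replicate. Cytoplasmic β-actin, *Actb*, stood at 2550, 2400 and 2260 CPM in Scr and at 2060, 2000 and 2250 CPM in Yme1l siRNA libraries. The groups came close, and the log2 fold change of -0.19 was not called (95% interval from -0.39 to 0.01, edgeR adjusted p = 0.0873). The *Actg1* transcript is at least 95% identical over at least 100 bases, the read length, to transcripts of 6 other genes, and how reads were shared among them is not stated. Among the contractile genes this held for *Tagln* alone, through the overlapping *Pcsk7* and *Gm48529*.

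**Figure D2:**
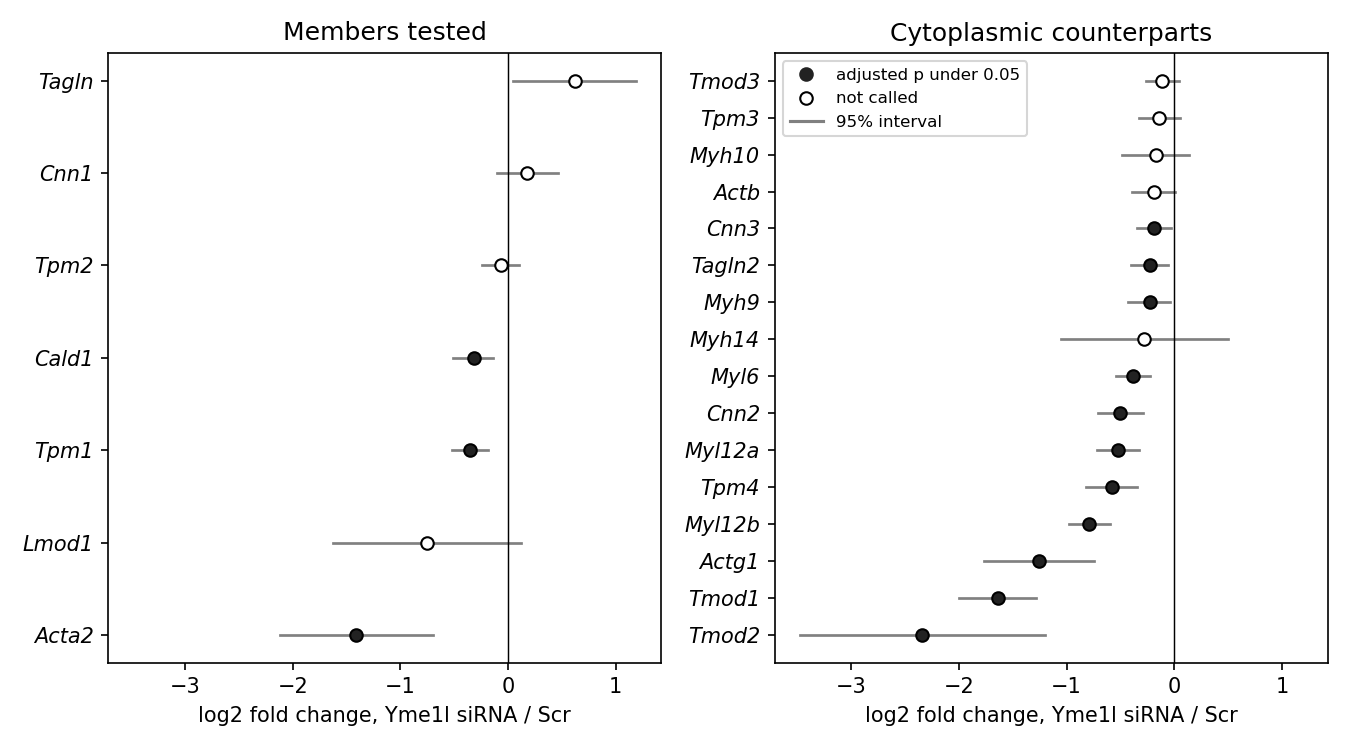
Log2 fold change of Yme1l siRNA against Scr with its 95% interval for the 7 contractile genes tested (left) and the 16 cytoplasmic counterparts (right), where filled points passed an adjusted p of 0.05 and open points did not. The contractile genes run from -1.41 (*Acta2*) to 0.62 (*Tagln*), whereas all counterparts lie below 0.

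The share of the muscle-type genes in their protein family was computed in each library from counts per kb, since a share does not depend on how a library is scaled. *Tpm1* and *Tpm2* made up 37.8, 38.1 and 39.3% of tropomyosin counts per kb in Scr and 43.2, 44.5 and 41.0% in Yme1l siRNA libraries, without overlap. Both loci also count cytoplasmic isoforms, so this is not a share of muscle isoforms alone. The difference of 4.46 percentage points was 2.03 when counts were not divided by length. *Tpm4*, which fell (log2 fold change -0.58, edgeR adjusted p = 0.00152), and *Tpm3* (-0.14, adjusted p = 0.177) make up the remainder. Part of the reads of *Tpm3* is uncertain, since *Tpm3-rs7* is 99.2% identical to it over 1910 bases. The share of *Cnn1* among calponins was 0.761, 0.749 and 0.879% in Scr and 1.11, 1.05 and 1.15% in Yme1l siRNA libraries. *Cnn2* (log2 fold change -0.50, edgeR adjusted p = 0.00161) and *Cnn3* (-0.19, adjusted p = 0.0461) fell, and the call of *Cnn3* was lost under most alternatives, among them the fits without Scr replicate 1 or 2 or Yme1l siRNA replicate 1 or 2.

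The *Tagln* share in the sum of *Tagln* and *Tagln2* was 0.417, 0.445 and 0.387% in Scr and 0.935, 0.562 and 0.753% in Yme1l siRNA libraries. *Tagln2* fell (log2 fold change -0.23, edgeR adjusted p = 0.0246). That call was lost without Scr replicate 1 or 2 or Yme1l siRNA replicate 1. *Myl9* held 0.0221, 0.0170 and 0.0154% of the regulatory light chains in Scr and 0.137, 0.0696 and 0.0619% in Yme1l siRNA libraries and rests on 7 counts summed over Scr and 25 over Yme1l siRNA libraries. Its difference of 0.0712 percentage points was 0.0248 when counts were not divided by length. These 4 shares were higher in every Yme1l siRNA library than in any Scr library, and each gave p = 0.1 in a two-sided exact permutation test, the smallest possible with 3 against 3 (0.15 adjusted over 6 families).

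For the actins, the share of *Acta2* and *Actg2* was 0.166 ± 0.0274% in Scr and 0.108 ± 0.0501% in Yme1l siRNA libraries (SD, n = 3 each), and the groups overlapped (exact permutation test, p = 0.3, 0.36 adjusted). The difference of -0.0579 percentage points was -0.0290 without Yme1l siRNA replicate 3. *Acta2* and *Actg1* both fell, and without *Actg1* the share was 0.378, 0.364 and 0.286% against 0.189, 0.199 and 0.0847%, without overlap. That alternative was chosen after seeing the data. *Acta1* was not analysed here. *Myh11* held 0.00305 ± 0.00149% of the heavy chains in Scr and 0.00217 ± 0.000811% in Yme1l siRNA libraries (SD, n = 3 each; exact permutation test, p = 0.5, also 0.5 adjusted). The abundant heavy chains were *Myh9* (2400 ± 41.6 and 2050 ± 160 CPM, SD, n = 3 each) and *Myh10* (311 ± 42.7 and 276 ± 45.9 CPM). *Myh9* fell by 0.23 on the log2 scale (edgeR adjusted p = 0.0435), a call that was lost under most alternatives, and *Myh10* (-0.17, adjusted p = 0.302) and *Myh14* (-0.28, adjusted p = 0.508) were not called.

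Genes that work with the contractile proteins were described, like the lists that follow, without a test of the list, from a list of 24, of which 22 were tested. Of these, 4 rose, 8 fell and 10 were not called, with a median log2 fold change of -0.19, beside 28.4% of all loci higher and 29.6% lower. The LIM proteins *Pdlim5* and *Csrp1*, which sit on actin filaments and Z-line-like structures, fell from 241 ± 22.5 to 91 ± 6.36 CPM and from 224 ± 2.77 to 65.7 ± 11.8 CPM (SD, n = 3 each). *Mylk*, the kinase that activates smooth muscle myosin by phosphorylating its light chain, fell from 33.6 ± 1.53 to 14.9 ± 1.03 CPM. Their log2 fold changes were -1.41, -1.77 and -1.17 (edgeR adjusted p = 1.24e-05, 1.47e-05 and 1.66e-05). α-Actinin, *Actn1*, a crosslinker of stress fibres, rose from 388 ± 9.82 to 522 ± 10.8 CPM, and *Fhl2*, a LIM cofactor, from 101 ± 16.6 to 136 ± 14.7 CPM (SD, n = 3 each). The *Fhl2* call was lost without Scr replicate 2 or 3 or Yme1l siRNA replicate 1. *Synpo2*, an actin-binding protein of Z-discs and dense bodies, rose with a log2 fold change of 1.71 (edgeR adjusted p = 0.00860), at 6, 6 and 4 counts against 17, 27 and 13 counts. It passed the filter on low counts only through the Yme1l siRNA libraries, where it was higher.

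Of 8 tested genes for SRF, its cofactors and transcription factors that act with it, 1 rose, 4 fell and 3 were not called (median log2 fold change -0.23), where 58.0% of all loci were called. *Srf* itself stood at 62.7 ± 5.74 and 64.0 ± 2.97 CPM (SD, n = 3 each), and its log2 fold change was 0.03 (95% interval from -0.16 to 0.22). The sign of this value turned without Scr replicate 3 or Yme1l siRNA replicate 3. Its actin-regulated cofactors *Mrtfa* and *Mrtfb*, which occur in the count table under the older names *Mkl1* and *Mkl2*, fell from 246 ± 15 to 185 ± 18.9 CPM and from 65.6 ± 5.72 to 49.5 ± 3.98 CPM (SD, n = 3 each). Both had a log2 fold change of -0.41 (edgeR adjusted p = 0.00490 and 0.00430). *Elk1*, an SRF partner that competes with these cofactors, also fell, at a locus joined with *Uxt* (-0.75, edgeR adjusted p = 2.32e-05). *Klf4*, a repressor of smooth muscle genes, rose from 41.4 ± 2.70 to 87.6 ± 15.8 CPM (SD, n = 3 each). *Foxf1* was not analysed here.

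Genes of myofibroblast activation, mostly matrix proteins and signals of the transforming growth factor β pathway, had 1 member higher, 8 lower and 4 not called out of 13 tested, and a median log2 fold change of -0.78, beside 28.4% of all loci higher and 29.6% lower. *Pdgfrb*, a receptor for platelet-derived growth factor, fell from 193 ± 14.3 to 112 ± 7.25 CPM, *Col3a1* from 4850 ± 1030 to 1700 ± 234 CPM and fibronectin, *Fn1*, from 9050 ± 183 to 4590 ± 752 CPM (SD, n = 3 each). *Ccn2*, listed as *Ctgf*, rose from 50.7 ± 3.45 to 239 ± 90.2 CPM (SD, n = 3 each). It is a known target of transforming growth factor β and of YAP with TEAD, and with a log2 fold change of 2.24 (edgeR adjusted p = 0.000176) it moved opposite to *Acta2*. With the replicate block, 2 genes of this list were higher and 10 lower. *Ccn2* stood at 295, 286 and 135 CPM in the Yme1l siRNA libraries, so the library with the least *Acta2* also had the least *Ccn2* of its group.

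Of 11 striated muscle genes in the count table, 9 were not tested. The 2 that were, the troponins *Tnnt2* and *Tnnc1*, rose from 1.81 ± 0.844 to 5.25 ± 1.17 CPM and from 2.07 ± 0.223 to 3.25 ± 0.268 CPM (SD, n = 3 each), with log2 fold changes of 1.54 and 0.65 (edgeR adjusted p = 0.00471 and 0.0104). Higher calls made up 28.4% of all loci tested, and 2 genes are too few to describe the list. The cardiac actin *Actc1* had at most 1 count in any library.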

How the data were processed

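RNA-Seq libraries were made from poly(A)-selected RNA with a stranded kit. Per the labels and methods, the authors mapped reads to mm10 (GRCm38) with HISAT2 2.0.4 and assembled transcripts with StringTie 1.3.3. The deposited values are raw counts per locus, without normalization. The counting program, its use of strand and its treatment of reads with several matches are not given in the sources used here. The authors' Cuffdiff 2.2.1 output (group levels, fold changes and p-values) was not used. Groups came from sample titles, and 0 columns of sample values had no sample. The libraries held 37260605 to 45205207 counts.

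Loci passing filterByExpr (minimum 10 counts, 15 in total) were tested without covariates by the quasi-likelihood test of edgeR 4.0.16 in R 4.3.3, with TMM scaling and Benjamini-Hochberg adjustment over all 14499 loci. The standard error is the log2 fold change divided by the square root of F. Ratios of summed counts carry exact binomial 95% intervals, which, like the limit of 3 counts, cover counting error only. Within groups, chi-square per degree of freedom between libraries was 9.99 to 73.8, far above sampling noise, and every library was kept as a sample.

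Members and lists were chosen with earlier results of these data known, and a few list genes are not reported here and were taken out of the list counts. All 10 members are named, and in each other list the 3 genes with the smallest adjusted p per direction, all family genes, *Srf*, *Mrtfa*, *Mrtfb* and *Myocd*. *Tmod2* and single marker genes were added after their values were seen. DESeq2 1.42.0, limma-voom 3.58.1, other scaling and filters, a stricter threshold, a replicate block and leave-one-out fits were alternatives. Coordinates, overlaps and exon lengths came from GENCODE M21. Identity between transcripts came from BLAST 2.17.0. Exons overlap genes on the other strand at *Tagln*, *Actn1*, *Ccn2*, *Cnn3*, *Des*, *Elk4*, *Fn1*, *Mrtfa*, *Mrtfb*, *Myh14*, *Myl12a*, *Mylk*, *Smtn*, *Tmod1* and *Tpm4*. Those of *Myl12a* also overlap *Myl12b* on its own strand. On simulated counts of 14499 genes for this comparison, of which 14326 passed the filter, edgeR recovered 160 of 200 genes changed by 2-fold, with 14 false calls (8.05%). Only those 200 genes were changed there, whereas 58.0% of loci were called in the data, and the simulated spread followed the fitted trend. These rates therefore need not hold for the data.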

Additional observations from a re-analysis of the deposited data

How the results depend on the processing

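*Acta2*, *Tpm1* and *Cald1* kept their direction and their call in all 16 settings, of which the stricter threshold reuses the main fit. Their log2 fold changes ran from -1.60 to -1.11, from -0.38 to -0.31 and from -0.40 to -0.27. *Tagln* was called in 2 of 16 settings, without Yme1l siRNA replicate 2 (0.79) and with a filter at a mean count of 50 (0.65). That filter gave 1 contractile gene higher and a median of -0.16, since *Lmod1* was no longer tested, and with every locus of at least 1 count the median was -0.21 and that of the SRF list -0.10. The SRF list had 2 genes higher under the filter at a mean count of 50, and a median of -0.17 without mtDNA genes and joined loci, where *Elk1* and *Elk4* were no longer tested. At an adjusted p under 0.01, 2 of the other contractile genes and 1 striated gene were higher. Leaving out each library gave 0 to 1 contractile gene higher, 2 to 4 of the other contractile genes higher (2 without Yme1l siRNA replicate 1), and medians from -0.25 to -0.12 (other contractile), -0.41 to -0.31 (cytoplasmic counterparts) and -0.27 to -0.16 (SRF list, -0.16 without Yme1l siRNA replicate 2). *Srf* ranged from -0.02 (without the third Scr library) to 0.10 and was -0.01 without the third Yme1l siRNA library. Without division by length, the share differences were 2.03 percentage points for tropomyosins (4.46 per kb) and 0.0248 for light chains (0.0712 per kb), and without *Actg1* that of the actins was -0.185 (-0.0579 with it). The cause of these changes was not tested. The RLE and upper quartile scalings moved the median of all loci by at most 0.02. Among single genes, 29 calls were lost, mostly of *Cnn3*, *Myh9*, *Tagln2* and *Fhl2*, and 5 were gained, for *Tagln*, *Actb* and *Tpm3*.

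Deviations from the group means correlated at 0.09, 0.17 and 0.25 between same-numbered libraries. Between libraries of different number the values were -0.24, -0.19, -0.13, -0.04, -0.04 and 0.14. Scr replicates 2 and 3 correlated best with the Yme1l siRNA library of their own number. Scr replicate 1 correlated best with Yme1l siRNA replicate 2 (0.14). Nothing in the labels ties the numbers to a day or batch, and no pairing was assumed. With the replicate block, *Acta2* had a log2 fold change of -1.47 (edgeR adjusted p = 0.000442) and the contractile genes again 0 higher and 3 lower. The myofibroblast list had 2 higher and 10 lower, against 1 and 8 without the block. *Cnn3* lost its call (-0.19, edgeR adjusted p = 0.0549).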
